A study of Mus musculus with 6 samples.

Results

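The facilitative glucose transporters are the Slc2a genes, and 10 of the 12 Slc2a genes listed among 45777 mouse genes were followed here by their symbols: Slc2a1, Slc2a3, Slc2a4, Slc2a5, Slc2a6, Slc2a8, Slc2a9, Slc2a10, Slc2a12 and Slc2a13. All 10 had at least 1 count in every sample and were therefore among the 22337 genes tested. RNA was sequenced from astrocytes of male Aldh1l1-CreERT2 mice carrying a floxed tdTomato reporter, in which tamoxifen given on 5 days switches on the red protein in cells that use the astrocyte gene Aldh1l1; the labels give the genotype as WT. At 8 weeks of age the mice received 1 injection of streptozotocin (STZ), which destroys insulin-producing beta cells and raises blood glucose, or of its citrate buffer (vehicle). TdTomato+ cells were sorted from dissociated brains 21 days after the injection. There were 3 vehicle and 3 STZ samples, each pooled from 3 mice, so that values of single mice cannot be seen. The reporter follows Aldh1l1 promoter activity, and every cell type that used this promoter could enter the gate.

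Facilitative transporters carry hexoses and related solutes down their gradient without using energy. Class I holds the classical glucose carriers, among them GLUT1 (Slc2a1), the carrier of astrocytes and of the blood-brain barrier endothelium, GLUT3 (Slc2a3), the carrier of neurons and many blood cells, and GLUT4 (Slc2a4), which insulin moves to the surface of muscle and fat cells. Class II holds the fructose carrier GLUT5 (Slc2a5), which microglia express in the brain, and the urate carrier GLUT9 (Slc2a9). Class III holds carriers that reside largely inside cells or carry other solutes, such as GLUT8 (Slc2a8) and the proton-coupled myo-inositol carrier HMIT (Slc2a13). Slc2a1 is a known target of the hypoxia-inducible factors, which bind the core letters ACGTG or GCGTG.

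The 250 bases upstream of an annotated transcript start are shown for the 3 transporters with the highest levels, since the comparison turns on the most abundant of them and on its contrast with the next. The sequences come from RefSeq on GRCm38.p6, the assembly behind mm10, and are written 5′ to 3′ on the strand of the gene. Slc2a1 lies on the plus strand at chr4:119108495-119108744, Slc2a8 on the minus strand at chr2:32982084-32982333 and Slc2a12 on the plus strand at chr10:22644761-22645010. Capitals mark every ACGTG or GCGTG and every GC box GGGCGG, read on both strands, and none of the marked runs in these windows overlap.
Slc2a1: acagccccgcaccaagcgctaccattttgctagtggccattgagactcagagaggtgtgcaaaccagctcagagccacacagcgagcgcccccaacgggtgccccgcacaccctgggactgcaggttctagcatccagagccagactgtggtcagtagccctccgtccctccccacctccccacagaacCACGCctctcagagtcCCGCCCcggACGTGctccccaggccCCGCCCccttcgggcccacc
Slc2a8: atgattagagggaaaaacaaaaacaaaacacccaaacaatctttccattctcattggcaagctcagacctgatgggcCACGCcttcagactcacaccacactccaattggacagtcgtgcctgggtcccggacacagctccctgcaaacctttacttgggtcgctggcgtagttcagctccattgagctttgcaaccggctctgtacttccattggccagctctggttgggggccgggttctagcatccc
Slc2a12: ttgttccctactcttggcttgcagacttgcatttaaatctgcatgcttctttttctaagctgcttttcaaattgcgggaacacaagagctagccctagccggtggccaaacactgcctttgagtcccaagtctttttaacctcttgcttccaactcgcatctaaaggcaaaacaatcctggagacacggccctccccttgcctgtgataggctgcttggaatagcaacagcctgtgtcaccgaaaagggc
The Slc2a1 window held 1 ACGTG, 1 GCGTG and 2 GC boxes with 66.4% G and C. The Slc2a8 window held 1 GCGTG with 52.8% G and C, and the Slc2a12 window held none of these letters with 48.8% G and C. Among 32851 mouse windows of the same length, 16.6% held ACGTG, 28.2% held GCGTG, 38.6% held either of them and 32.7% held the GC box. Windows were found for 8 of the 10 members. They start from 1 annotated transcript each: the last 21 bases of the Slc2a12 window lie inside the gene as placed below, from a transcript that starts further upstream, and the Slc2a9 window lies wholly inside its gene and is not described. Among the other windows, that of Slc2a6 held 4 GCGTG and 1 GC box, those of Slc2a10 and Slc2a13 held 2 GC boxes each, and that of Slc2a5 held 3. These matches are letters in a window and were not measured as bound sites.

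Total counts per sample lay between 52529048 and 58749115, and 3 counts, taken as the floor, corresponded to 0.0511 to 0.0571 CPM (counts scaled to the library total). The labelled cell type was checked with 12 astrocyte markers, all above 0 in every sample, whose summed level was 18187 to 21707 TPM (transcript levels scaled for length and library) in vehicle and 18203 to 19957 TPM in STZ. By gene, 8 of the 12 had a lower fitted level in STZ, 3 of them (Aqp4, Slc4a4 and the reporter's own Aldh1l1) at an unadjusted p under 0.05 by edgeR, and 1, Gjb6, was higher at that p. None of the 12 was called by edgeR or DESeq2. Markers of other cells were present too. The 8 choroid plexus markers summed to 10634 to 29980 TPM in vehicle and 15991 to 27029 TPM in STZ, most of it Ttr, the 12 microglia markers to 878 to 1307 TPM and 867 to 1206 TPM, and the 8 neuron markers to only 31.7 to 49.6 TPM and 37.6 to 59.1 TPM. The 15 endothelial markers, all above 0, summed to 413 to 692 TPM in vehicle and 686 to 1030 TPM in STZ. All 15 had a higher fitted level in STZ, 12 of them at an unadjusted p under 0.05 by edgeR's quasi-likelihood test and 0 at an adjusted p under 0.05, while DESeq2 called 2. The 7 neutrophil markers, also all higher in STZ with 1 at an unadjusted p under 0.05, summed to 443 to 2619 TPM and 1618 to 3695 TPM. Pericyte markers summed to 77.0 to 116 TPM in vehicle and 88.4 to 129 TPM in STZ, with 6 of 7 tested higher, 3 of them at an unadjusted p under 0.05 by edgeR and 3 called by DESeq2. The 6 ependymal markers, all with a higher fitted level in STZ and 0 at that p, summed to 195 to 520.5 TPM and 417 to 679 TPM, and the 8 oligodendrocyte markers, 4 of them higher, to 788 to 2054 TPM and 1027 to 2881 TPM.

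The sorted cells, which also carried markers of other cell types, expressed Slc2a1 far above the rest of the family. Slc2a1 averaged 541 ± 70.0 TPM (SD, n = 6), which was 5.61 times the mean of Slc2a8 at 96.4 ± 8.61 TPM. Slc2a12 followed at 49.2 ± 7.89 TPM, Slc2a10 at 28.3 ± 2.35 TPM and Slc2a4 at 21.3 ± 9.41 TPM. Next came Slc2a3 at 6.99 ± 2.65 TPM, Slc2a5 at 6.88 ± 1.57 TPM and Slc2a6 at 6.49 ± 2.83 TPM. Slc2a13 at 1.04 ± 0.164 TPM and Slc2a9 at 0.359 ± 0.207 TPM closed the order. The ranges over the 6 samples did not overlap between neighbours in this order except for 3 pairs. Slc2a10 was above Slc2a4 in 5 of 6 samples, including all 3 vehicle samples, where the ranges were apart, and the order was reversed in STZ replicate 1. Slc2a3 was above Slc2a5 in 3 of 6 samples, and Slc2a5 above Slc2a6 in 3 of 6, so these neighbours do not differ beyond their spread. Of the Slc2a genes that are not members, the liver and beta-cell carrier Slc2a2 had 6 to 24 counts per sample, and Slc2a7 had a count in 2 samples and at most 4.

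**Figure D1:**
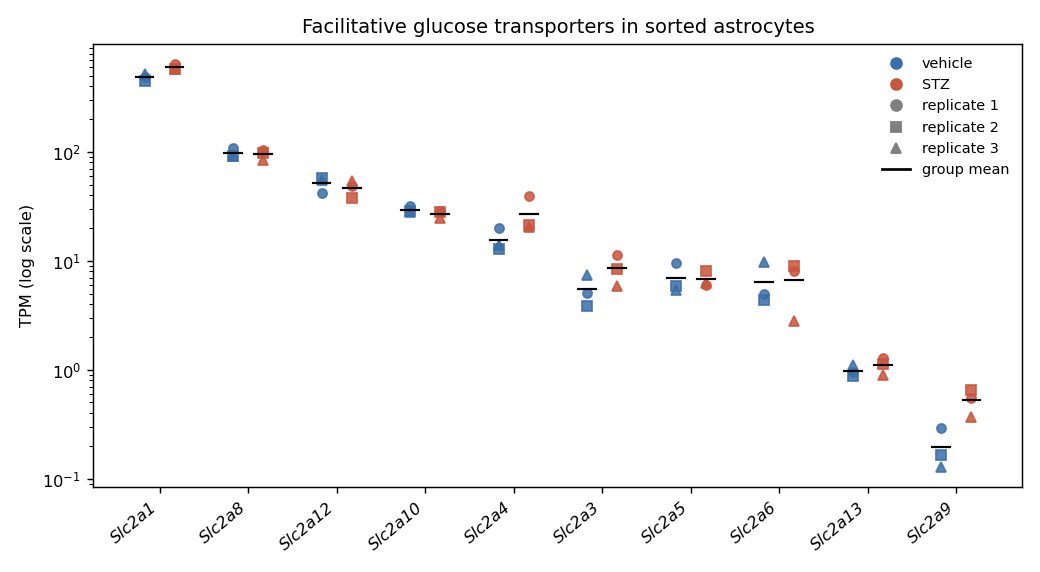
Level of each of the 10 transporters in TPM on a log axis, ordered by mean level, in 3 vehicle (blue) and 3 STZ (red) samples. Marker shapes give the replicate number and black bars the group mean. Slc2a1 lies above all others in every sample, and in Slc2a1, Slc2a4 and Slc2a9 the vehicle and STZ points do not overlap.

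The 10 members together summed to 698 ± 42.6 TPM in vehicle and 817 ± 61.0 TPM in STZ (SD, n = 3 each). Slc2a1 made up 68.8%, 68.3% and 70.9% of this sum in vehicle replicates 1 to 3 and 72.0%, 72.9% and 74.4% in STZ replicates 1 to 3. Its share was thus higher in each STZ sample than in each vehicle sample, the means being 69.4% ± 1.37 and 73.1% ± 1.18. The members other than Slc2a1 summed to 214 ± 7.89 TPM in vehicle and 220 ± 25.1 TPM in STZ, ranges that overlap. The 4 highest members, Slc2a1, Slc2a8, Slc2a12 and Slc2a10, held 92.5% to 95.7% of the family's sum in every sample. Shares of 1 total move together and were not tested.

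None of the 10 members passed the threshold for a change, an adjusted p under 0.05 with a fold change over 1.5, in edgeR's quasi-likelihood test or in the DESeq2 Wald test. Over all genes tested, edgeR called 0.0224% and DESeq2 1.05%. By edgeR, 3 members had an unadjusted p under 0.05, Slc2a1, Slc2a4 and Slc2a9, all with a higher level in STZ, where 5.63% of all genes met that rule. DESeq2 had 4 such members, with Slc2a3 added, but the share of all genes at that p by DESeq2 was not counted. No member met the rule in the other direction, which 5.65% of all genes did by edgeR. In normalized CPM (scaled by the trimmed mean of M-values), Slc2a1, Slc2a4 and Slc2a9 were higher in every STZ than in every vehicle sample, as were 8.64% of all genes. Slc2a10 was lower in every STZ sample, as were 9.85% of all genes. The median log2 fold change of the members was 0.09, beside 0.01 over all genes, and their median absolute log2 fold change was 0.16, beside 0.17. In bulk RNA of sorted cells, fewer cells of one kind and less RNA per cell cannot be told apart.

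**Figure D2:**
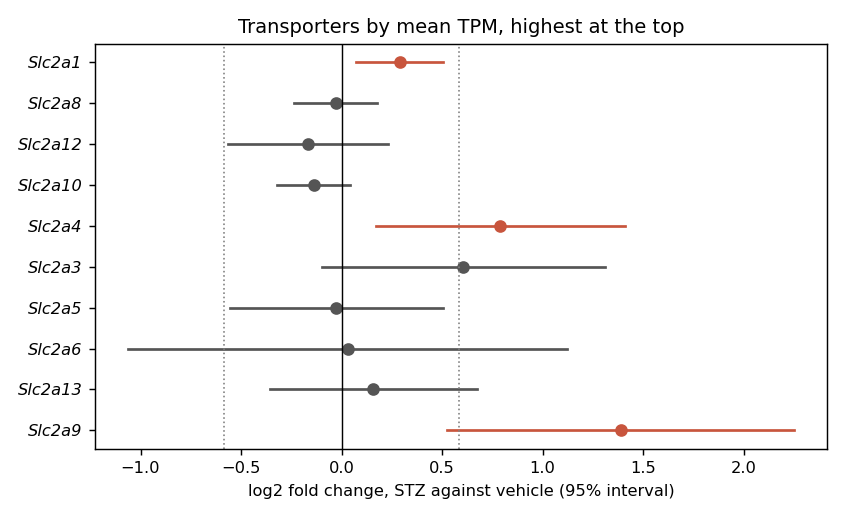
Log2 fold change of each transporter, STZ against vehicle, from edgeR with its 95% interval, ordered by mean TPM with the highest at the top. Dotted lines mark a fold of 1.5 and red marks an unadjusted p under 0.05, which Slc2a1, Slc2a4 and Slc2a9 reached; no adjusted p was under 0.05.

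Among the class I carriers, Slc2a1 (chr4:119108745-119137330, mm10), the main glucose carrier of astrocytes and endothelium, stood at 489, 445 and 520 TPM in vehicle replicates 1 to 3. In STZ replicates 1 to 3 it stood at 639, 572 and 579 TPM. The lowest STZ sample lay above the highest vehicle sample. The group means were 484 ± 37.7 TPM and 597 ± 36.9 TPM, a difference of 112 TPM with p = 0.1 in a two-sided exact permutation test, the smallest p that 3 against 3 samples allow. In the count fit the log2 fold change was 0.29 (95% interval 0.07 to 0.50), with an adjusted p of 0.347 by edgeR and 0.163 by DESeq2. At 27467 to 44664 counts per sample, counting error is small beside the spread between pools. A fold of 1.5, the size the call asks for, corresponds to a log2 value above the upper end of that interval. Without vehicle replicate 3, the vehicle sample with the most Slc2a1, DESeq2 gave an adjusted p of 0.0265 with a log2 fold change of 0.35, still under the fold required. With any other sample left out, the adjusted p by DESeq2 lay between 0.180 and 0.474. The fitted value lay between 0.22 and 0.35 whichever sample was left out of the edgeR fit. Of the annotated exon bases of Slc2a1, 2.99% are shared with the antisense gene Gm12868, and nothing says that reads were counted by strand.

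Endothelial cells are rich in Slc2a1, and the endothelial markers moved with it between the groups. Without Mfsd2a, which alone held 396 TPM on average and is far above the other markers of that list, the summed endothelial level was 86.8, 122 and 292 TPM in vehicle replicates 1 to 3 and 556, 417 and 297 TPM in STZ replicates 1 to 3. Vehicle replicate 3 and STZ replicate 3 were thus nearly equal in endothelial markers, and their Slc2a1 levels were 520 and 579 TPM. In vehicle replicates 1 to 3, these markers summed to 86.8, 122 and 292 TPM, and Slc2a1 was 489, 445 and 520 TPM. The difference of the group means was 112 TPM in Slc2a1, while the endothelial sum went from a mean of 167 TPM to 423 TPM. The coefficient of variation over the 6 samples was 13.0% for Slc2a1. It was 67.0% for its ratio to the endothelial sum without Mfsd2a and 24.7% with Mfsd2a included. For its ratio to the sum of the astrocyte markers it was 14.4%. The part of the endothelial cells in the Slc2a1 difference was not tested.

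Slc2a4 (chr11:69942286-69948216), the insulin-responsive carrier, had 20.1, 12.9 and 13.8 TPM in vehicle and 39.0, 21.3 and 20.5 TPM in STZ replicates 1 to 3. STZ replicate 1 stood apart at the top, while STZ replicates 2 and 3 were only just above vehicle replicate 1. The log2 fold change was 0.79 (95% interval 0.17 to 1.41), with an unadjusted p of 0.0192, an adjusted p of 0.357 by edgeR and 0.0636 by DESeq2, and p = 0.1 in the exact permutation test of the TPM. The call depended on single samples in DESeq2. Without vehicle replicate 1 the gene passed the threshold with a log2 fold change of 1.002 and an adjusted p of 0.00998, and without STZ replicate 3 it passed with 0.93 and 0.0441. By edgeR the fold change without STZ replicate 1 dropped to 0.45 on the log2 scale, and no omission brought the adjusted p under 0.335. Endothelial markers without Mfsd2a, given above, were also higher in each STZ than in each vehicle sample. With Mfsd2a included the groups overlapped, at up to 692 TPM in vehicle and from 686 TPM in STZ. Oligodendrocyte markers were highest in the sample with the most Slc2a4, at 2054, 852 and 788 TPM in vehicle and 2881, 1027 and 1101 TPM in STZ replicates 1 to 3. The coefficient of variation over the 6 samples was 44.2% for Slc2a4 and 24.8% for its ratio to the oligodendrocyte sum. For its ratio to the endothelial sum it was 72.5% without Mfsd2a and 32.6% with Mfsd2a included. The part of either cell type in the Slc2a4 difference was not tested.

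Slc2a3 (chr6:122727809-122802363), the high-affinity neuronal carrier, had 5.07, 3.87 and 7.48 TPM in vehicle and 11.2, 8.41 and 5.84 TPM in STZ replicates 1 to 3. The groups overlapped, since STZ replicate 3 was below vehicle replicate 3. Fitted to the counts, the log2 fold change was 0.61 (95% interval -0.10 to 1.31; edgeR adjusted p 0.495, DESeq2 adjusted p 0.313). Neuron markers were scarce in all samples. With Mfsd2a included, which alone averaged 396 TPM, the endothelial sum was 413, 471 and 692 TPM in vehicle. In STZ replicates 1 to 3 it was 1030, 854 and 686 TPM. This order of samples differs from that of Slc2a3 only in vehicle replicates 1 and 2. The coefficient of variation was 37.9% for Slc2a3, 15.4% for its ratio to this sum, and 21.1% for its ratio to the pericyte markers. For its ratio to the neuron markers it was 27.1%. Neutrophil markers, at 443, 483 and 2619 TPM and 3486, 3695 and 1618 TPM, followed a similar order of samples but not in proportion, with 70.1% for the ratio. Without Mfsd2a the ratio to the endothelial sum varied by 51.3%. The Slc2a3 log2 fold change was 0.35 without STZ replicate 1 and 0.88 without vehicle replicate 3. The part of these cell types in Slc2a3 was not tested.

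**Figure D3:**
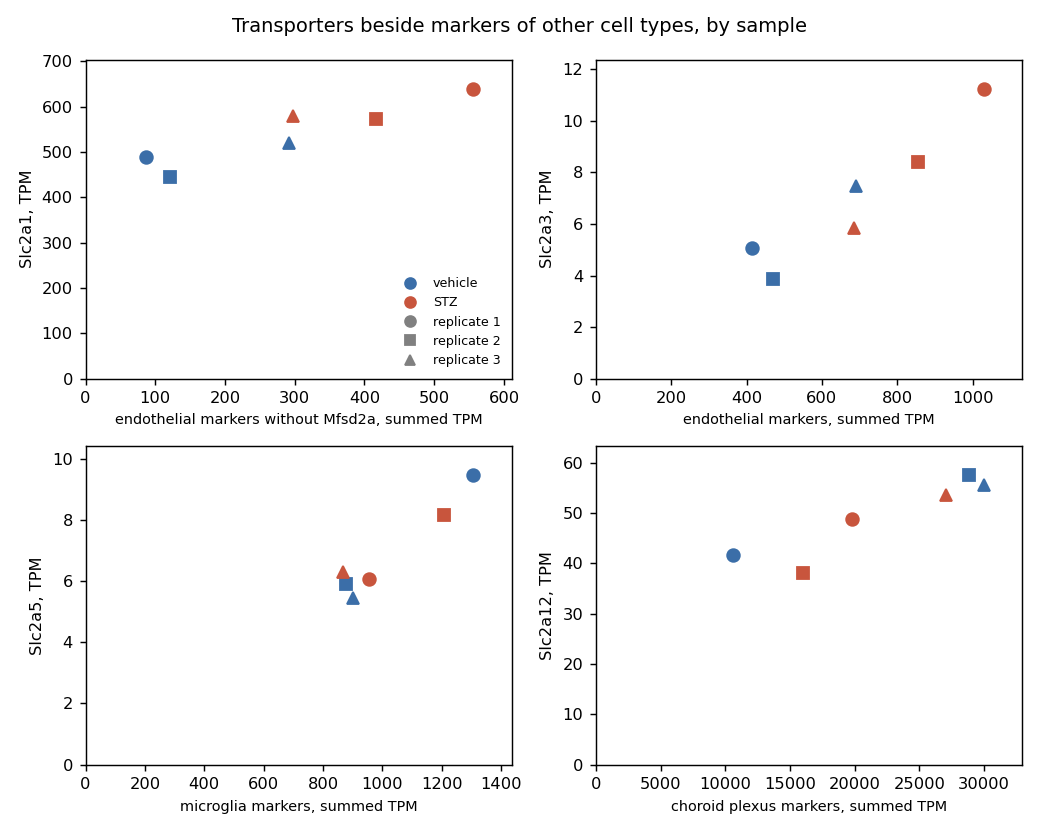
Level of 4 transporters (vertical axes, TPM) against the summed TPM of a marker list of another cell type (horizontal axes) in the 3 vehicle (blue) and 3 STZ (red) samples, shapes giving the replicate; the pairs were chosen after the values were seen. Slc2a5 and microglia markers lie close to a line from the origin, Slc2a3 is lowest in the 2 samples with the fewest endothelial markers, Slc2a12 in the 2 with the fewest choroid plexus markers, and Slc2a1 differs less between samples than the endothelial sum does. The endothelial sum leaves out Mfsd2a in the panel of Slc2a1 and includes it in that of Slc2a3.

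Of the class II carriers, Slc2a9 (chr5:38349272-38503147), which carries urate, was scarce, with 27, 16 and 14 counts in vehicle and 58, 67 and 39 counts in STZ replicates 1 to 3. Each STZ sample was above each vehicle sample. The levels were 0.293, 0.166 and 0.128 TPM against 0.553, 0.646 and 0.369 TPM, and the exact permutation test of the TPM gave p = 0.1. The log2 fold change of 1.39 (95% interval 0.53 to 2.25; unadjusted p 0.00624) was the highest of the family, and its adjusted p was 0.301 by edgeR and 0.149 by DESeq2. It lay between 1.17 and 1.73 when single samples were left out of the edgeR fit. On the log2(TPM + 1) scale, which compresses so low a level, the difference was 0.35, and on log2(TPM + 0.1) it was 1.09. Endothelial markers without Mfsd2a separated the groups as Slc2a9 did, though only narrowly, at 292 TPM in vehicle replicate 3 and 297 TPM in STZ replicate 3. With Mfsd2a included the groups overlapped. The part of the endothelial cells in Slc2a9 was not tested. The coefficient of variation was 57.8% for Slc2a9. For its ratio to the endothelial sum it was 66.8% without Mfsd2a and 42.0% with Mfsd2a included. Even the STZ level remained under 1 TPM, and at 14 to 67 counts per sample counting error contributes to its spread.

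Slc2a5 (chr4:150119344-150144168), the fructose carrier, had 9.47, 5.89 and 5.44 TPM in vehicle and 6.05, 8.14 and 6.30 TPM in STZ replicates 1 to 3. The highest value was in vehicle, the ranges overlapped, and the log2 fold change was -0.03 with a 95% interval from -0.56 to 0.50 (edgeR adjusted p 0.975). Vehicle replicate 1 and STZ replicate 2, the highest samples for Slc2a5, were also those with the most microglia markers, at 1307 and 1206 TPM beside 867 to 954 TPM in the remaining samples. Per 1000 TPM of microglia markers, Slc2a5 lay between 6.04 and 7.27 TPM in all 6 samples. The coefficient of variation over the 6 samples was 22.8% for the Slc2a5 level and 7.23% for this ratio. None of the 12 microglia markers reached an unadjusted p under 0.05 by edgeR, and their sums averaged 1029 TPM in vehicle and 1009 TPM in STZ. The cells that the Slc2a5 reads came from were not determined.

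The class III carriers contained Slc2a8, Slc2a12 and Slc2a10, which ranked next to Slc2a1 in level, and 0 of the 5 had an unadjusted p under 0.05 by edgeR or DESeq2. Slc2a8 (chr2:32972981-32982083), an intracellular hexose carrier, had 107, 91.5 and 92.0 TPM in vehicle and 105, 97.8 and 84.9 TPM in STZ replicates 1 to 3. The groups overlapped widely. The log2 fold change was -0.03 with a 95% interval from -0.23 to 0.18 (edgeR adjusted p 0.929), a narrow interval. Per 1000 TPM of astrocyte markers Slc2a8 lay between 4.66 and 5.40 TPM, with a coefficient of variation of 4.80% beside 8.93% for its level alone.

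Slc2a10 (chr2:165503897-165519917), linked to vitamin C transport and arterial disease, had 31.9, 28.9 and 27.8 TPM in vehicle and 28.4, 28.1 and 24.6 TPM in STZ replicates 1 to 3. The groups overlapped in TPM, although in normalized CPM, at 49.2, 46.1 and 45.2 against 44.0, 44.2 and 39.4, they did not. A log2 fold change of -0.14 was fitted (95% interval -0.32 to 0.04; edgeR adjusted p 0.534). Slc2a10 also kept close to the astrocyte markers, at 1.35 to 1.59 TPM per 1000 TPM of them.

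Slc2a12 (chr10:22644990-22703880), a carrier of glucose and urate, had 41.6, 57.5 and 55.6 TPM in vehicle and 48.8, 38.0 and 53.5 TPM in STZ replicates 1 to 3. Vehicle replicate 1 and STZ replicate 2 were low and the groups overlapped. Its log2 fold change was -0.17 (95% interval -0.57 to 0.23; edgeR adjusted p 0.743). The same 2 samples had the fewest choroid plexus markers, 10634 and 15991 TPM, beside 19789 to 29980 TPM in the others. Slc2a12 did not follow them in proportion, with a coefficient of variation of 16.0% for its level and 31.5% for the ratio. Its ratio to the astrocyte markers varied by 21.5%. The part of the choroid plexus in the Slc2a12 level was not tested. Of the exon bases of Slc2a12, 9.61% are shared with Tbpl1 on the other strand, which averaged 26.4 TPM, so that some reads of this gene cannot be assigned without strand.

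Slc2a6 (chr2:27021363-27028000), a lysosomal carrier of myeloid cells, was the most uneven member within groups, with 4.90, 4.37 and 9.79 TPM in vehicle and 8.02, 9.03 and 2.83 TPM in STZ replicates 1 to 3. The highest sample was vehicle replicate 3 and the lowest STZ replicate 3. The log2 fold change of 0.03 had the widest interval of the family, -1.06 to 1.12 (edgeR adjusted p 0.984), which includes folds beyond 1.5 in both directions. Slc2a13 (chr15:91267691-91573261), the proton-coupled myo-inositol carrier, had 0.950, 0.869 and 1.11 TPM in vehicle and 1.29, 1.13 and 0.898 TPM in STZ replicates 1 to 3. The ranges overlapped, and the log2 fold change was 0.16 (95% interval -0.35 to 0.67; edgeR adjusted p 0.821).

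Genes that work with the transporters were taken from 5 lists and none was called by edgeR. Of the 14 sodium-coupled and other sugar carriers 7 were tested, with 2 at an unadjusted p under 0.05 and higher in STZ and 0 lower. They were Slc5a11, a sodium-coupled myo-inositol and glucose carrier (log2 fold change 0.70, edgeR adjusted p 0.345), and Slc37a4, which brings glucose 6-phosphate into the endoplasmic reticulum (0.24, edgeR adjusted p 0.349). The most abundant of this list was Slc50a1 at 120.1 TPM with a log2 fold change of 0.14, and Slc37a4 and Slc37a3 followed at 46.0 and 10.4 TPM. Of 11 tested genes of hexose phosphorylation, its reversal and its control, 1 was higher and 1 lower at that p. Khk, which phosphorylates fructose, went from 20.3 ± 1.28 to 25.6 ± 0.464 normalized CPM (SD, n = 3; log2 fold change 0.34, edgeR adjusted p 0.288), and Hk1, the main brain hexokinase, from 156 ± 5.63 to 134 ± 12.5 normalized CPM (-0.22, edgeR adjusted p 0.411). The most abundant of this list at 154 TPM was G6pc3 (log2 fold change -0.13), a phosphatase that reverses the step. Hk1 at 77.0 TPM and the galactokinase Galk1 at 75.2 TPM followed.

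All 20 genes of transporter traffic and turnover were tested, with 1 at an unadjusted p under 0.05 in each direction and a median log2 fold change of -0.0036. Txnip, a glucose-induced protein that promotes the uptake of GLUT1 from the cell surface, had 43.9, 41.0 and 58.8 TPM in vehicle and 119, 109 and 54.3 TPM in STZ replicates 1 to 3. STZ replicates 1 and 2 were high, but STZ replicate 3 lay below vehicle replicate 3. Its log2 fold change was 0.95 (edgeR adjusted p 0.318), and DESeq2 called it with an adjusted p of 0.0121. Stx4a, a partner of GLUT4 vesicles at the surface, had a log2 fold change of -0.27 in the counts (edgeR adjusted p 0.302). Its group means of TPM gave a log2 ratio of -0.56. The most abundant genes of the list, Vamp2, Rab14 and Rab10 at 217, 196 and 159 TPM, had log2 fold changes of -0.13, 0.06 and -0.10.

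Of 20 tested regulators of Slc2a transcription and hypoxia targets, 2 were higher and 1 lower at an unadjusted p under 0.05. Vegfa, the endothelial growth factor and a hypoxia target like Slc2a1, went the other way from Slc2a1, from 357 ± 2.14 to 280 ± 5.57 normalized CPM (SD, n = 3), with no overlap of the groups. Its log2 fold change was -0.35 with an adjusted p of 0.189 by edgeR and 0.0054 by DESeq2, under the fold required in both. The hypoxia target Ankrd37 went from 4.27 ± 1.54 to 8.14 ± 1.13 normalized CPM (log2 fold change 0.93, edgeR adjusted p 0.328, called by DESeq2 with 0.0343), and Adm, which encodes the vessel-relaxing peptide adrenomedullin, had a log2 fold change of 0.61 (edgeR adjusted p 0.415). P4ha1 and Bnip3, abundant hypoxia targets at 201 and 110.0 TPM, had log2 fold changes of -0.25 and 0.17. Of 8 tested genes of fructose, polyol and myo-inositol handling, 1 was higher and 0 lower at that p, namely Impa1, which frees myo-inositol from its phosphate (log2 fold change 0.26, edgeR adjusted p 0.301). The 2 measures differed for Impa1, since its group means of TPM gave a log2 ratio of 0.59. Cdipt at 189 TPM and the aldose reductase Akr1b3 at 70.4 TPM, the most abundant of that list ahead of Impa1 at 64.2 TPM, had log2 fold changes of -0.12 and 0.03.

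**Figure D4:**
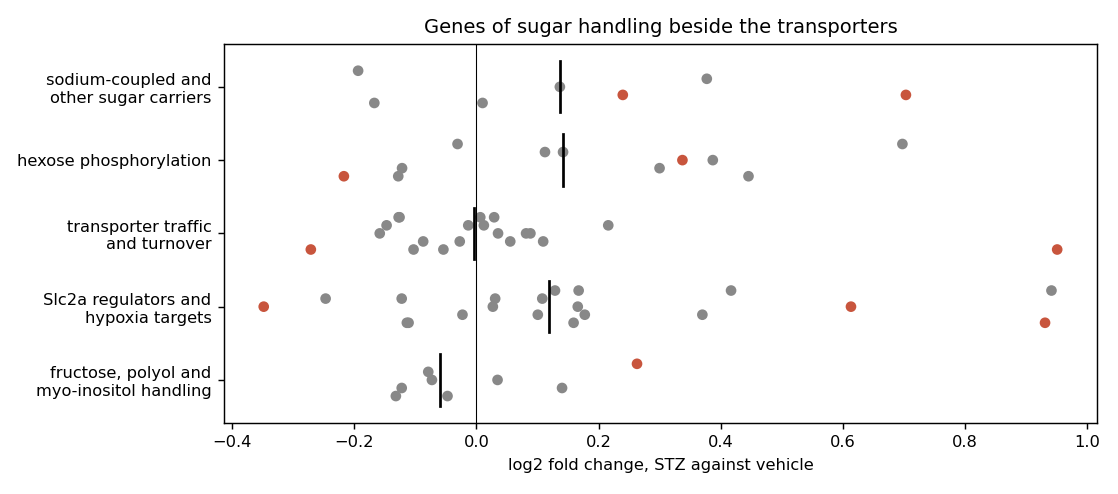
Log2 fold change, STZ against vehicle by edgeR, of each tested gene in 5 lists that surround the transporters; each point is a gene, black bars are list medians, and red marks an unadjusted p under 0.05. The medians lie between -0.06 and 0.14, and the points farthest to the right are Txnip in the traffic list and 2 genes among the regulators and hypoxia targets, of which only Ankrd37 is red.

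The genes whose pattern over the 6 samples was most like that of a transporter were found by the mean absolute difference of centred log2 CPM, among 11012 or 11013 other tested genes with a mean log2 CPM of at least 3. For Slc2a1 these were Card19, Mob3a, the transcription factor Klf6, Ralgps2 and the actin-capping Tmod3, with mean differences of 0.03 to 0.05 on the log2 scale. For Slc2a4 they were Adam11, the complement gene C2, Col5a3, Etnppl, which breaks down phosphoethanolamine, and the cold-inducible Cirbp, at 0.11 to 0.16. For Slc2a9 they were the phospholipase Pla2g3, Ugt1a6a, Col5a3, Cirbp and Hpgd, which inactivates prostaglandins, at 0.28 to 0.31. Col5a3 and Cirbp were on both of the last lists, and their log2 fold changes were 0.89 and 0.82. Ugt1a6a shares exons with its neighbours in the Ugt1a cluster, and its count is uncertain. Likeness was measured over 6 samples of 2 groups and is given as a description.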

How the data were processed

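RNA sequencing of sorted tdTomato+ astrocytes was analysed for 3 vehicle and 3 STZ samples, grouped by the treatment in the labels. Per the labels, libraries were made from polyA RNA with a RIN over 7.0; reads were aligned to mm10 with HISAT2 2.1.0 and quantified with StringTie 2.1.3b, as named in the submitters' processing notes. The annotation is not given in the sources used here. The authors deposited raw counts, whole reads per gene that had not been scaled. The TPM values, computed by the authors, sum to between 999946.2 and 999982.0 per sample, and were used to compare genes with each other. The FPKM values of the authors were used only as an alternative for the shares.

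Genes with a count in every sample (22337 of 45777) were tested in R 4.3.3 with the two-sided quasi-likelihood test of edgeR 4.0.16, after TMM scaling, in a model holding only the group. P-values were adjusted by Benjamini-Hochberg over all tested genes. Genes were called where the adjusted p was under 0.05 and the fold over 1.5. The filter and thresholds follow the study's methods, which use DESeq2 and also remove outlier genes by a step not described there, which was not repeated. DESeq2 1.42.0 was an alternative, as were its size factors in edgeR, other filters on low counts, no minimum fold, the replicate number as a block, limma 3.58.1 on log2(TPM + 1) and log2(TPM + 0.1), and leaving out each sample in turn. DESeq2 with each sample left out and the endothelial sum without Mfsd2a were chosen after seeing the data. Normalized CPM were those of edgeR; for patterns, a prior count of 2 was added before the log2. Differences of mean TPM were tested with a two-sided exact permutation test.

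The members and lists were chosen with earlier results of these data known. All members are named; of each other list, genes called, at most 4 genes with an unadjusted p under 0.05 and the 3 with the highest mean TPM are named, and for members with an unadjusted p under 0.05 the 5 genes with the nearest pattern. One gene of a list is not reported here and was left out of its counts. Of the marker lists of cell types, counts and sums are given. Total counts were at least 52529048 per sample. Counting error weighs most on Slc2a9, at 14 to 67 counts per sample, and next on Slc2a13, at 138 to 231. No samples had identical counts. On simulated data for STZ against vehicle (21969 genes, 200 changed 2-fold), edgeR called 128 changed and 14 unchanged genes and DESeq2 called 155 and 75. Exon overlaps were taken from GENCODE M21. Tables were made with Python 3.11.15, numpy 2.4.6 and pandas 2.3.3.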

Additional observations from a re-analysis of the deposited data

How the results depend on the processing

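No member was called under any alternative of the edgeR or limma fits or by DESeq2 on all samples. DESeq2 with 1 sample left out called 0 or 1, and that member was Slc2a4 (log2 fold change 0.45 to 1.002; called without vehicle replicate 1 and without STZ replicate 3). Slc2a9 got no adjusted p from DESeq2 in 1 of these 6 fits, that without vehicle replicate 1 (NA after its filter), and was not assessed there. Its log2 difference of 1.39 was 0.35 on log2(TPM + 1) by limma. Over all genes, calls numbered 5 by edgeR, 234 by DESeq2, 0 by limma on log2(TPM + 1) or log2(TPM + 0.1), and 0 to 1 by edgeR with 1 sample left out, the 1 without vehicle replicate 3. DESeq2 called 119 genes without STZ replicate 1, 127 without vehicle replicate 2, 138 without STZ replicate 2, 368 without STZ replicate 3 and 692 without vehicle replicate 3. Members with an unadjusted p under 0.05 numbered 1 to 4 by edgeR, 1 without vehicle replicate 2 and without STZ replicate 1, and 2 to 4 by DESeq2, 2 without STZ replicate 2.

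Signs turned only where the fitted difference was near 0. Slc2a5 had a log2 fold change of 0.0062 by limma on log2(TPM + 1) and 0.010 on log2(TPM + 0.1), and -0.17 to 0.23 with 1 sample left out. Its TPM difference was 0.0062 on log2(TPM + 1) and -0.847 to 1.16 TPM with 1 sample left out. Slc2a6 had -0.0093 by limma on log2(TPM + 0.1) and, with 1 sample left out, -0.26 to 0.49 in the count fit and -0.933 to 2.17 TPM. For Slc2a8 the ranges were -0.083 to 0.040 and -5.63 to 4.33 TPM.

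With the replicate number as a block, 0 genes were called, and Slc2a1, Slc2a4 and Slc2a9 had adjusted p of 0.601, 0.586 and 0.600. The deviations of same-numbered samples correlated at -0.10, -0.16 and -0.18. These values gave no sign that the numbers pair the samples, but so few of them cannot settle it. Depth limits Slc2a9 most, at 14 to 67 counts, and then Slc2a13, at 138 to 231 counts. With 3 samples a group, the permutation test cannot go below 0.1. The cause of the difference between tools was not tested.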
